A study of Mus musculus with 15 samples.

Results

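Cholesterol and fatty acid synthesis genes were followed across 5 groups of cultured mouse heart stromal cells. The 37 genes were listed by name, from the first steps of cholesterol synthesis to the control, transport and efflux of sterols and the making of fatty acids, and each was read from the array probe set that names it alone, taking the probe set with the highest mean where there were several. Of the 37 genes 35 were measured, among 19938 genes tested. Acat2, the thiolase at the head of the pathway, and Nr1h2, which encodes LXRβ, were named by no single-gene probe set and were not analysed here. The cells were colony-forming unit fibroblasts of the heart (cCFU-F), stromal cells that form colonies from sparse plating, grown from the hearts of C57BL/6 mice of 12 weeks, labelled male, and sorted as SCA1+PDGFRα+CD31-. They were kept as large and as small colonies, and RNA was put on 15 Affymetrix gene arrays, 3 per group. Untreated large colonies were sampled at passage 5 (large P5) and passage 15 (large P15). Small colonies were sampled untreated at passage 5 (untreated small P5), and with PDGF-AB at 50 ng/ml at passage 5 (treated small P5) and at passage 15 (treated small P15). PDGF-AB is a dimeric platelet-derived growth factor. The groups hold no untreated small colonies at passage 15, so where treated small and large colonies were compared, colony size and PDGF-AB cannot be told apart. How long PDGF-AB was given is not stated in the sources used here, nor whether arrays of 1 group stem from separate cultures or animals. The p-values then measure only how far these arrays differ, which may be technical.

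Values are log2 intensities. A level is a group mean ± SD (n = 3), a change is a log2 difference of group means ± SE, and an adjusted p is from limma over all 19938 genes, 2-sided, with a threshold of 0.05. In bulk RNA, fewer cells of a type and less RNA per cell cannot be told apart. Of the 35 genes 33 lay at or above the median level of all genes (6.02), and Pmvk and Abcg1 lay below it. Array medians ran from 5.59 to 5.72. In all 15 arrays Xist, the RNA of the inactive X chromosome in females, ran from 8.93 to 10.88 and 4 Y-linked genes from 2.24 to 3.42, which goes against the male label. Pecam1, which encodes CD31, lay between 4.18 and 4.66, against array lower quartiles of 4.06 to 4.23. Pdgfra, the receptor of the sort, lay at 6.58 ± 0.12 in large P5, 8.84 ± 0.15 in large P15, 6.66 ± 0.11 in untreated small P5, 6.28 ± 0.10 in treated small P5 and 6.63 ± 0.028 in treated small P15. Thy1, a surface protein of many fibroblasts, was at 10.33 and 10.63 in the large colonies and between 5.11 and 5.49 in the small ones. The collagen genes Col1a1 and Col1a2 went the other way at passage 5. They were at 10.21 and 9.86 in large P5 and at 12.16 and 11.61 in untreated small P5. In the same 2 groups Dcn was at 12.45 and 11.28, and Pdgfrb at 11.83 and 11.77.

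Cells make cholesterol from acetyl-CoA through mevalonate, isoprenoid diphosphates, squalene and lanosterol. When sterols run low in the endoplasmic reticulum, the escort protein SCAP carries the transcription factors SREBP1 and SREBP2 to the Golgi, where they are cut and freed to switch on the genes of this pathway. INSIG1 and INSIG2 hold SCAP back when sterols are plentiful. SREBP1 also drives fatty acid synthesis, and the oxysterol receptors LXRα and LXRβ turn on the efflux pumps ABCA1 and ABCG1 and the ubiquitin ligase MYLIP. PDGF is a mitogen of mesenchymal cells, and in cultured human fibroblasts it is known to activate SREBP through phosphatidylinositol kinase signalling.

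The promoters of the synthesis genes whose group means ranged most widely are shown. Each runs from 250 bases before to 50 after the transcript start, in the gene's own direction, from RefSeq on build GRCm38.p6. Capitals mark CCAAT on either strand, the box bound by NF-Y, and TCACNCCAC, a core of the sterol regulatory element. Idi1 lies at chr13:8885356-8885655 on the plus strand, Msmo1 at chr8:64733529-64733828 on the minus strand, Sc5d at chr9:42264251-42264550 on the minus strand, Cyp51 at chr5:4104648-4104947 on the minus strand and Hmgcs1 at chr13:119690101-119690400 on the plus strand.
Idi1: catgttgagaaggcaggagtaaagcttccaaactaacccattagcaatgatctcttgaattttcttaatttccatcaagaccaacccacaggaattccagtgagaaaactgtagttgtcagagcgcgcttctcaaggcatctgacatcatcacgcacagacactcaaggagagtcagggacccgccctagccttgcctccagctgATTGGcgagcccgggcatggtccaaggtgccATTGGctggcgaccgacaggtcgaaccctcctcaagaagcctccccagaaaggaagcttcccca
Msmo1: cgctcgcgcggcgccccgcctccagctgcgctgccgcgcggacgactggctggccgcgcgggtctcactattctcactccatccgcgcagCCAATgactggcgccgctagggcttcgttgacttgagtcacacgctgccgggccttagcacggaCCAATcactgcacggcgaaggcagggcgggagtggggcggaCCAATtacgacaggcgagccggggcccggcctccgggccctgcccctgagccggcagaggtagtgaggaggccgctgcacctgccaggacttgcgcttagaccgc
Sc5d: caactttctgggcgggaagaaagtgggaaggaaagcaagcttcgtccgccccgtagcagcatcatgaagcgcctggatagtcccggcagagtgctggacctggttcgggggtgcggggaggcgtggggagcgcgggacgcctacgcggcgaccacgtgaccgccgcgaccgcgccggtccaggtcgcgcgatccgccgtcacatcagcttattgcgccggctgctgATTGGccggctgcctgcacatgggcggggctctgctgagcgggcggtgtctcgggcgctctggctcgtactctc
Cyp51: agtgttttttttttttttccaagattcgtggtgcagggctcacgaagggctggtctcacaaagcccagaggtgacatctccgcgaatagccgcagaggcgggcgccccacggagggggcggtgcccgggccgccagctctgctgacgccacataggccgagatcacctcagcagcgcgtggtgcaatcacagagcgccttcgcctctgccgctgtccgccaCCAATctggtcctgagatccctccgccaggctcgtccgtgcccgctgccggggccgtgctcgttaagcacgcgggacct
Hmgcs1: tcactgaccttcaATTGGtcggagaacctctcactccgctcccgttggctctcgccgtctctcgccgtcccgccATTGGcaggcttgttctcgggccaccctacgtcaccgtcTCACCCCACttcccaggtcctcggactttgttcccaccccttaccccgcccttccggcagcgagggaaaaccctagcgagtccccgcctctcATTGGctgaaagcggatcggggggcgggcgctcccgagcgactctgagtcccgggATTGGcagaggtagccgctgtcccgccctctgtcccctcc
Hmgcs1 was added after its match was seen, being the one synthesis gene whose window held TCACNCCAC. The promoter table held 29 of the 37 genes, 15 of them among the 18 synthesis genes. CCAAT was found in 14 of these 15 genes, against 41.1% of the 27025 genes in the table and 42.7% of 8071 tested genes in it with at least the median level. The SP1 box GGGCGG was also found in 14 of 15, against 38.2% and 72.1%. TCACNCCAC was found in 1 of 15, against 1.44% and 1.33%. The motifs were searched on both strands, and in the windows shown no match overlapped another. A match describes these letters in this window and is not a bound site. Whether the motifs bear on the changes in expression was not tested. Idi1 holds its CCAAT boxes 45 and 14 bases before the start, both reading on the opposite strand, Msmo1 holds 3 at 160, 96 and 55 bases before it, and Cyp51 a single one 29 bases before it.

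**Figure D1:**
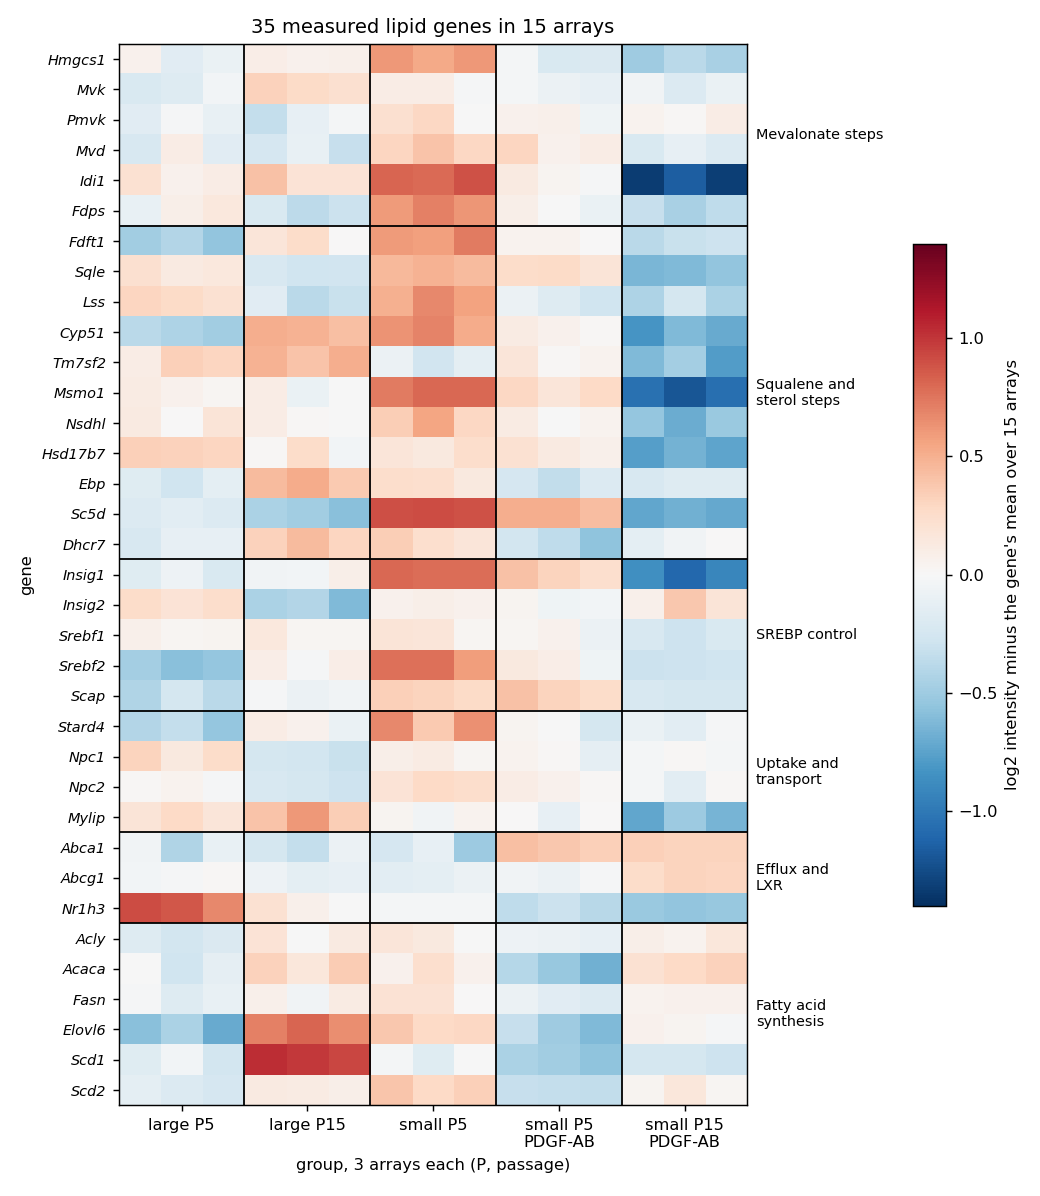
Each row is 1 of 35 measured genes, each column 1 of 15 arrays, and colour is the log2 intensity minus that gene's mean over all arrays. Red blocks in untreated small P5 and blue blocks in treated small P15 run through most of the mevalonate, squalene and sterol rows, while the fatty acid rows are bluest in large P5 and treated small P5.

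The mevalonate steps were highest in untreated small colonies. Idi1, the isomerase that makes the building blocks of all isoprenoids, gave 6.86, 6.70 and 6.75 in large P5, 7.06, 6.84 and 6.83 in large P15, 7.46, 7.44 and 7.54 in untreated small P5, 6.78, 6.68 and 6.63 in treated small P5 and 5.32, 5.49 and 5.33 in treated small P15. All 3 untreated small arrays lay above, and all 3 treated small P15 arrays below, every other array. Large P5 overlapped both large P15 and treated small P5, which did not overlap each other. A further Idi1 probe set gave like group means, 7.49 in untreated small P5 and 5.30 in treated small P15. Hmgcs1, the synthase that makes HMG-CoA, gave 7.81, 7.59 and 7.65 in large P5, 7.85, 7.80 and 7.82 in large P15, 8.36, 8.27 and 8.35 in untreated small P5, 7.72, 7.54 and 7.54 in treated small P5 and 7.25, 7.37 and 7.29 in treated small P15. Its order was the same, with untreated small P5 on top, treated small P15 at the bottom and large P5 overlapping large P15 and treated small P5, which lay apart from each other. Fdps, which joins the isoprenoid units to farnesyl diphosphate, gave 8.51, 8.70 and 8.76 in large P5, 8.40, 8.25 and 8.32 in large P15, 9.21, 9.33 and 9.24 in untreated small P5, 8.70, 8.62 and 8.53 in treated small P5 and 8.30, 8.16 and 8.26 in treated small P15. Untreated small P5 again stood above all other arrays, large P5 and treated small P5 overlapped, and large P15 overlapped treated small P15 at the bottom. The kinases and the decarboxylase between them ranged less: Mvk ran from 7.87 to 8.29, Pmvk from 5.10 to 5.43 and Mvd from 7.37 to 7.92 between their lowest and highest group means. Mvk was the one mevalonate gene with its highest mean in large P15.

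Most squalene and sterol steps had the same top and bottom groups with more spread between genes. Msmo1, the oxidase that removes the C4 methyl groups, gave 9.08, 9.03 and 8.99 in large P5, 9.07, 8.87 and 8.95 in large P15, 9.69, 9.77 and 9.77 in untreated small P5, 9.26, 9.13 and 9.25 in treated small P5 and 7.92, 7.77 and 7.90 in treated small P15. Untreated small P5 was highest, all treated small P15 arrays lay below all others, and the large groups overlapped each other. Sc5d, a late desaturase of the sterol ring, gave 9.04, 9.08 and 9.04 in large P5, 8.78, 8.74 and 8.64 in large P15, 10.13, 10.14 and 10.11 in untreated small P5, 9.73, 9.73 and 9.66 in treated small P5 and 8.50, 8.56 and 8.50 in treated small P15. None of its 5 groups overlapped, and both P15 groups lay at the bottom. Cyp51, the demethylase that acts on lanosterol, gave 7.47, 7.42 and 7.36 in large P5, 8.35, 8.34 and 8.26 in large P15, 8.48, 8.54 and 8.37 in untreated small P5, 7.96, 7.91 and 7.86 in treated small P5 and 7.02, 7.23 and 7.14 in treated small P15. Here large P15 came next below untreated small P5, and large P5 lay close to the bottom. Fdft1, which commits the pathway to sterols by making squalene, was lowest in large P5 (9.29 ± 0.070) and highest in untreated small P5 (10.40 ± 0.081), and a further Fdft1 probe set gave 9.25 and 10.14. Of the other steps, Sqle (squalene epoxidase), Lss (lanosterol synthase) and Nsdhl (the C4 decarboxylase) were also highest in untreated small P5, at 10.40, 7.66 and 9.32. Tm7sf2, a reductase of the sterol nucleus, Ebp, an isomerase, and Dhcr7, the last reductase of the pathway, were highest in large P15, at 6.91, 8.90 and 6.95. Hsd17b7, the keto-reductase, was highest in large P5 (9.17) and lowest in treated small P15 (8.13). Over the 17 measured synthesis genes, 12 had their highest mean in untreated small P5 and 11 their lowest in treated small P15. For 10 of the 17, and 15 of all 35 genes, the 3 untreated small P5 arrays lay above all 12 others, which held for 5.28% of all genes. For 9 of the 17, and 13 of all 35, the 3 treated small P15 arrays lay below all others, against 11.2% of all genes. These shares over all genes were taken for these groups and directions alone. They were not taken for genes at or above the median level, where most of the 35 lie.

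Among the controllers, Insig1 followed the synthesis genes and Insig2 did not. Insig1, itself a target of SREBP, gave 9.29, 9.39 and 9.25 in large P5, 9.41, 9.42 and 9.54 in large P15, 10.26, 10.24 and 10.24 in untreated small P5, 9.87, 9.77 and 9.69 in treated small P5 and 8.60, 8.35 and 8.54 in treated small P15. No groups overlapped, with untreated small P5 at the top and treated small P15 at the bottom. Srebf2, which encodes SREBP2, gave 8.56, 8.46 and 8.50 in large P5, 9.13, 9.02 and 9.13 in large P15, 9.81, 9.81 and 9.63 in untreated small P5, 9.18, 9.13 and 8.98 in treated small P5 and 8.73, 8.74 and 8.76 in treated small P15. It was highest in untreated small P5 and lowest in large P5, and treated small P5 overlapped large P15. Insig2, the second retention protein, gave 8.91, 8.84 and 8.90 in large P5, 8.21, 8.24 and 8.04 in large P15, 8.71, 8.73 and 8.71 in untreated small P5, 8.69, 8.59 and 8.62 in treated small P5 and 8.73, 9.04 and 8.84 in treated small P15. It was lowest in large P15, treated small P15 overlapped both large P5 and untreated small P5, and large P5 lay above untreated small P5 without overlap, a difference that was not called. Scap was near 10.16 in both P5 small groups, which overlapped, and lowest in large P5 (9.48 ± 0.090). Srebf1 ranged only from 7.72 in treated small P15 to 8.09 in untreated small P5. Srebf2 is also on a probe set shared with 3 other genes, which was left out.

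Sterol transport and efflux genes had orders of their own. Mylip, whose ligase marks lipoprotein receptors for breakdown, gave 7.16, 7.25 and 7.14 in large P5, 7.38, 7.59 and 7.32 in large P15, 7.01, 6.92 and 7.02 in untreated small P5, 6.98, 6.86 and 6.98 in treated small P5 and 6.25, 6.47 and 6.33 in treated small P15. The large groups lay above all small ones, and treated small P15 lay below all other arrays. Stard4, a cytosolic sterol carrier, gave 5.71, 5.78 and 5.57 in large P5, 6.21, 6.17 and 6.02 in large P15, 6.79, 6.48 and 6.75 in untreated small P5, 6.15, 6.11 and 5.87 in treated small P5 and 6.02, 5.96 and 6.09 in treated small P15. It was highest in untreated small P5 and lowest in large P5, as Srebf2 was, and the 3 remaining groups overlapped. Npc1 and Npc2, which pass cholesterol out of the lysosome, were both lowest in large P15, at 9.93 ± 0.039 and 9.45 ± 0.037, with group means up to 10.43 (large P5) and 9.94 (untreated small P5).

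Abca1, the pump that loads cholesterol onto apolipoproteins, gave 8.52, 8.15 and 8.46 in large P5, 8.32, 8.23 and 8.49 in large P15, 8.33, 8.45 and 8.06 in untreated small P5, 8.99, 8.94 and 8.90 in treated small P5 and 8.90, 8.88 and 8.88 in treated small P15. Both treated groups lay above all untreated arrays, and the 3 untreated groups overlapped. Nr1h3, which encodes LXRα, gave 7.10, 7.05 and 6.86 in large P5, 6.40, 6.26 and 6.18 in large P15, 6.16, 6.16 and 6.16 in untreated small P5, 5.83, 5.88 and 5.80 in treated small P5 and 5.67, 5.64 and 5.66 in treated small P15. It was highest in large P5, and large P15, untreated small P5, treated small P5 and treated small P15 followed in that order without overlap. Abcg1, the pump that loads high-density lipoprotein, was highest in treated small P15 (6.25 ± 0.030), above all other arrays, with other group means of 5.83 to 5.94.

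**Figure D2:**
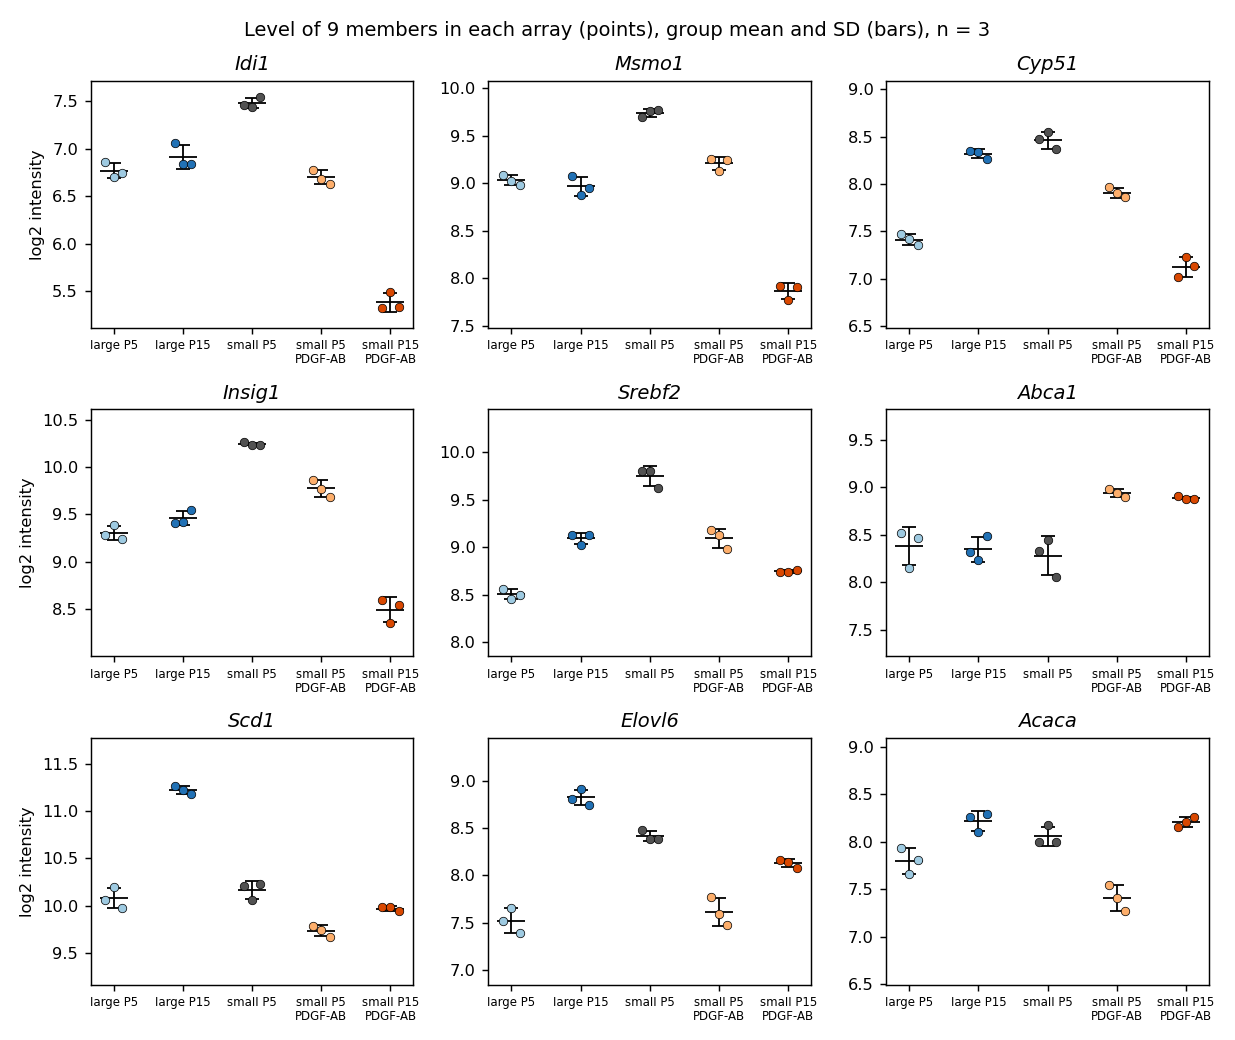
Points are the log2 intensities of 9 genes in each of 15 arrays, bars the group mean and SD (n = 3), and vertical axes differ in their start and span the same range. Idi1, Msmo1, Cyp51 and Insig1 are lowest in treated small P15 and highest in untreated small P5, Abca1 is high in both treated groups, and Scd1 stands out in large P15.

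Of the fatty acid synthesis genes 4 of 6 had their highest mean in large P15 and 4 of 6 their lowest in treated small P5. Only for Scd1 and Elovl6 did the large P15 arrays lie above all others. Acly was at 9.36 in large P15 and at 9.35 in both untreated small P5 and treated small P15. Acaca was at 8.22 in large P15 and 8.21 in treated small P15. Scd2 and Fasn were highest in untreated small P5, as most cholesterol synthesis genes were. Scd1, a desaturase that makes oleate, gave 10.06, 10.20 and 9.98 in large P5, 11.26, 11.22 and 11.18 in large P15, 10.21, 10.06 and 10.23 in untreated small P5, 9.79, 9.75 and 9.67 in treated small P5 and 9.99, 9.99 and 9.94 in treated small P15. Large P15 lay far above all other arrays, and treated small P5 lay below all other arrays. Elovl6, which lengthens palmitate, gave 7.52, 7.66 and 7.39 in large P5, 8.81, 8.91 and 8.75 in large P15, 8.47, 8.38 and 8.39 in untreated small P5, 7.77, 7.60 and 7.48 in treated small P5 and 8.16, 8.14 and 8.08 in treated small P15. Large P15 was again highest, followed without overlap by untreated small P5 and treated small P15, while large P5 and treated small P5 overlapped at the bottom. Acaca, the carboxylase that commits acetyl-CoA to fatty acids, gave 7.93, 7.66 and 7.81 in large P5, 8.26, 8.10 and 8.30 in large P15, 8.00, 8.17 and 8.00 in untreated small P5, 7.54, 7.40 and 7.27 in treated small P5 and 8.16, 8.21 and 8.26 in treated small P15. Treated small P5 was lowest, and large P15, treated small P15 and untreated small P5 overlapped. A further Acaca probe set was also lowest in treated small P5, with a mean of 6.51. Scd2, the other desaturase, ran from 11.32 in treated small P5 to 11.98 in untreated small P5. Fasn, the synthase itself, ranged only from 9.71 to 9.99, and Acly, which supplies acetyl-CoA from citrate, from 9.04 to 9.36.

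**Figure D3:**
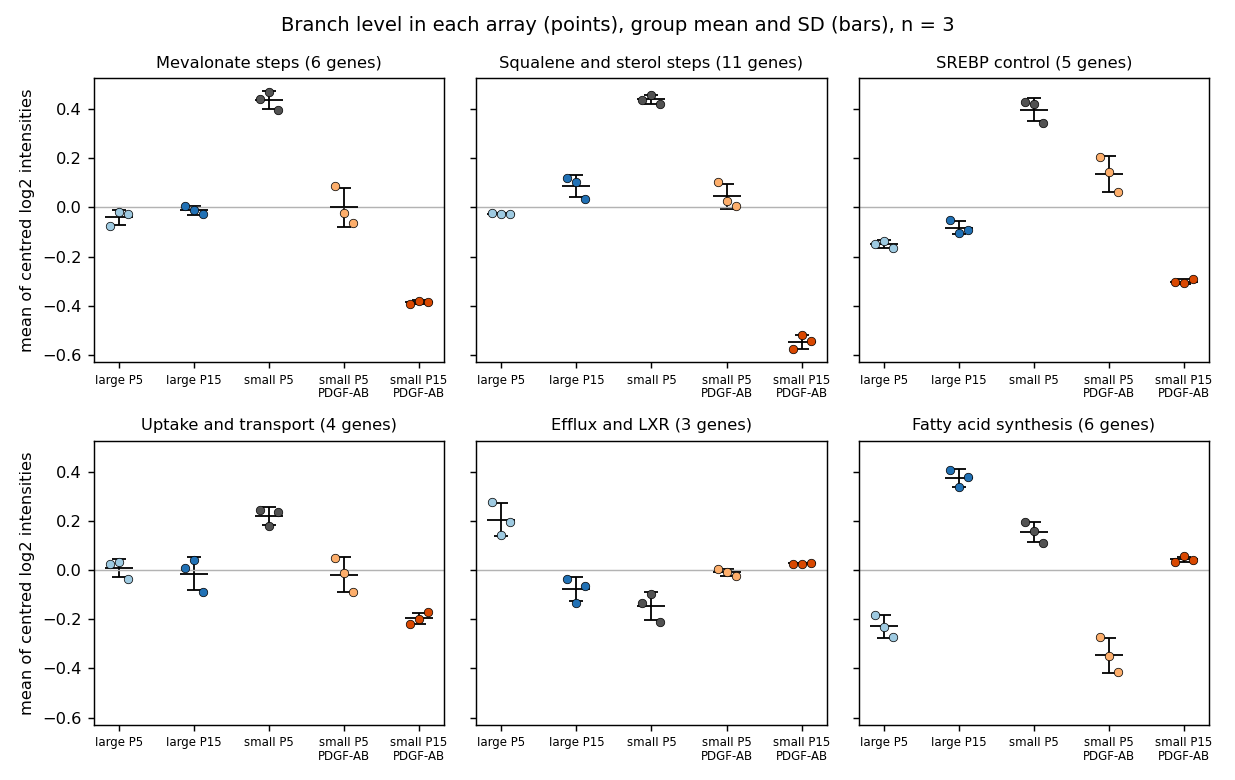
Each point is 1 array, placed at the mean over a branch's genes of the log2 intensity minus each gene's mean over all arrays, with the group mean and SD (n = 3) as bars. Mevalonate and sterol steps are at 0.44 in untreated small P5 and at -0.39 and -0.55 in treated small P15, whereas fatty acid synthesis is highest in large P15 (0.38) and lowest in treated small P5 (-0.35).

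The comparison of large with small untreated colonies at passage 5 asked what sets the colony sizes apart before treatment. Cholesterol synthesis genes were lower in large colonies: 15 of 17 were lower and Tm7sf2 alone was higher. Over all 35 genes, 25 were lower and 2 higher, Tm7sf2 and Nr1h3. The count of higher genes was 4 with arrays centred on their medians, 5 without genes below the median level and 4 with the compared arrays alone. The share lower, 71.4%, stood against 18% of all genes tested and 29.1% of those at or above the median level, the share higher, 5.71%, against 18.2% of all genes tested and 26.2% of those at or above the median level, and the share called in either direction, 77.1%, against 36.2% of all genes tested and 55.3% of those at or above the median level. The median over the 17 synthesis genes was -0.41, against 0.031 over all genes. Srebf2 differed most (-1.24 ± 0.066, adjusted p = 1.67e-10), which is 2.36-fold, followed by Fdft1 (-1.12 ± 0.068, adjusted p = 8.59e-10), Sc5d (-1.07 ± 0.053) and Cyp51 (-1.05 ± 0.066). These 4 of 35 were the differences of at least 2-fold, which 3.93% of all genes showed. All 6 mevalonate genes were lower, by -0.71 for Idi1, -0.64 for Hmgcs1 and -0.60 for Fdps. Insig1 (-0.94 ± 0.071), Scap (-0.65 ± 0.059) and Stard4 (-0.99 ± 0.092) were lower too, whereas Insig2 and Srebf1 were at 0.17 and -0.077 and not called. Of the fatty acid genes 5 of 6 were lower, with Elovl6 (-0.89 ± 0.080) and Scd2 (-0.52 ± 0.055) ahead, and Scd1 was at -0.087, not called. The efflux pumps Abca1 and Abcg1 were at 0.099 and 0.11, not called, while Nr1h3 was higher (0.84 ± 0.067, adjusted p = 2.93e-08). Sqle and Srebf2 lie on chromosome 15, where the median change of genes with at least the median level, less that over all chromosomes, was -0.32, and Sqle's own change was -0.29. Npc2 lies on chromosome 12, where that value was -0.21, and its change was -0.22. Here and below, chromosome values are given wherever they made up the greater part of a called change, and for a few further genes. For other called genes the shift was smaller against the change, or went the other way. The part of such chromosome-wide shifts in these results was not tested. Acaca lost its call without large P5 array 2 or 3 or untreated small P5 array 2 (-0.26 to -0.19, adjusted p = 0.0539 to 0.129). Fasn lost its call without large P5 array 2 or untreated small P5 array 1 or 2 (-0.20, adjusted p = 0.0544 to 0.0565). Mvk lost its call without large P5 array 1 or 2 or untreated small P5 array 1 or 2 (-0.19 to -0.17, adjusted p = 0.057 to 0.0642). Pmvk lost its call without large P5 array 1 or 3 or untreated small P5 array 1 or 2 (-0.26 to -0.20, adjusted p = 0.0575 to 0.115). Mvk also lost its call with the compared arrays alone.

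PDGF-AB against no treatment, in small colonies at passage 5, asked what the growth factor changed. Genes of both synthesis branches were lower with it: 12 of 17 cholesterol synthesis genes and all 6 fatty acid genes. Over all 35 genes 23 were lower and 2 higher. The share lower, 65.7%, stood against 18.2% of all genes tested and 31% of those at or above the median level, the share higher, 5.71%, against 10.7% of all genes tested and 13.8% of those at or above the median level, and that called in either direction, 71.4%, against 28.9% of all genes tested and 44.8% of those at or above the median level. The median was -0.47 over the 17 synthesis genes and -0.54 over the 6 fatty acid genes, against 0.016 over all genes. The largest falls were in Elovl6 (-0.80 ± 0.080, adjusted p = 1.29e-06), Idi1 (-0.78 ± 0.074, adjusted p = 6.57e-07), Lss (-0.76 ± 0.075) and Hmgcs1 (-0.73 ± 0.067), none of them a 2-fold change, which 1.39% of all genes showed. Srebf2 (-0.65 ± 0.066), Insig1 (-0.47 ± 0.071) and Stard4 (-0.63 ± 0.092) fell as well, while Scap was at 0.025, Srebf1 at -0.13 and Insig2 at -0.084, none of them called. Within the sterol branch Hsd17b7 (-0.051) was not called and Tm7sf2 (0.24 ± 0.084, adjusted p = 0.0401) was higher. Mvk, Pmvk and Mvd were at -0.14, -0.14 and -0.18, not called. Against this direction Abca1 rose 1.58-fold (0.66 ± 0.10, adjusted p = 0.000122), Abcg1 was at 0.072 and not called, and Nr1h3 fell (-0.32 ± 0.067). For chromosome 15 that value was -0.13, and Sqle there changed by -0.22. Abca1 lies on chromosome 4, where that value was 0.20. This comparison and the one of colony sizes share the 3 untreated small P5 arrays, so a departure of those arrays would enter both. Acly lost its call without untreated small P5 array 1 or 2 or treated small P5 array 1, 2 or 3 (-0.20 to -0.16, adjusted p = 0.0555 to 0.132). Npc2 lost its call without untreated small P5 array 2 or treated small P5 array 2 or 3 (-0.18 to -0.16, adjusted p = 0.0584 to 0.0829). Tm7sf2 lost its call without untreated small P5 array 2 or 3 or treated small P5 array 1 or 3 (0.19 to 0.26, adjusted p = 0.0621 to 0.168). Acly also lost its call with median centring, cyclic loess and the compared arrays alone, Npc2 with cyclic loess and Tm7sf2 with the replicate block.

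**Figure D4:**
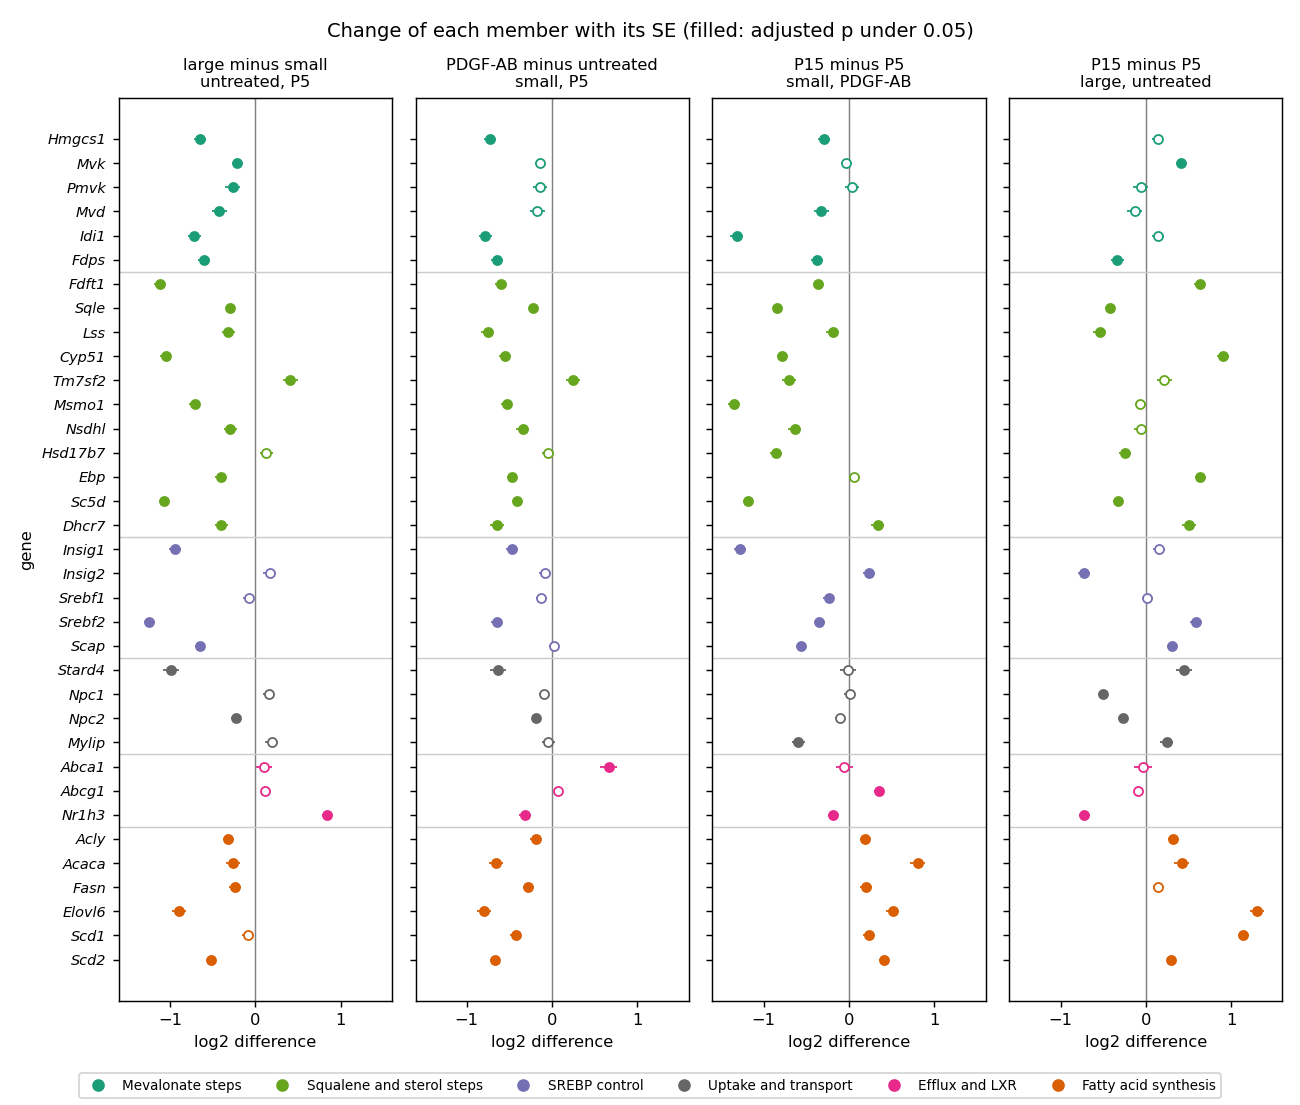
Log2 differences with their SE (whiskers) of 35 genes in 4 comparisons, filled where the adjusted p was under 0.05, with colours for the branches. Most sterol steps lie left of 0 in the first 3 panels, from -1.35 (Msmo1, passage in treated small colonies) upwards, and the fatty acid genes lie left of 0 in the first 2 panels and right of 0 in the last 2.

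Passage 15 against passage 5 in treated small colonies asked how the genes altered over time in culture under PDGF-AB. Cholesterol synthesis genes fell and fatty acid genes rose: 13 of 17 synthesis genes were lower and 6 of 6 fatty acid genes higher. Over all 35 genes 19 were lower and 9 higher. The share lower, 54.3%, stood against 21.4% of all genes tested and 36% of those at or above the median level, the share higher, 25.7%, against 24.6% of all genes tested and 29.8% of those at or above the median level, and that called either way, 80.0%, against 46% of all genes tested and 65.8% of those at or above the median level. The medians were -0.37 over the synthesis genes and 0.32 over the fatty acid genes, against 0.051 over all genes. The changes of at least 2-fold were those of Msmo1 (-1.35 ± 0.065, adjusted p = 3.26e-11), Idi1 (-1.32 ± 0.074, adjusted p = 2.41e-10), Insig1 (-1.28 ± 0.071, adjusted p = 2.22e-10) and Sc5d (-1.19 ± 0.053, adjusted p = 1.27e-11), all falls, 4 of 35 against 5.26% of all genes. Hsd17b7 (-0.86 ± 0.071), Sqle (-0.84 ± 0.052), Cyp51 (-0.78 ± 0.066) and Tm7sf2 (-0.70 ± 0.084) followed, whereas Dhcr7 rose (0.34 ± 0.077) and Ebp was at 0.063, not called. Of the controllers, Scap (-0.56 ± 0.059), Srebf2 (-0.35 ± 0.066) and Srebf1 (-0.24 ± 0.062) fell beside Insig1, and Insig2 rose (0.23 ± 0.074). Mylip fell (-0.59 ± 0.076), while Stard4, Npc1 and Npc2 were at -0.016, 0.0065 and -0.11, not called. Abcg1 rose (0.35 ± 0.050) and Abca1 was at -0.055, not called. The fatty acid genes rose by 0.80 for Acaca, 0.51 for Elovl6, 0.41 for Scd2 and from 0.19 to 0.23 for Acly, Fasn and Scd1. Scd1 and Scd2 lie on chromosome 19, where the chromosome's value was 0.12. This comparison shares the treated small P5 arrays with that of PDGF-AB. Acly lost its call without treated small P5 array 2 or 3 or treated small P15 array 3 (0.16 to 0.19, adjusted p = 0.0516 to 0.093). Fasn lost its call without treated small P5 array 2 or 3 or treated small P15 array 2 or 3 (0.18 to 0.20, adjusted p = 0.0571 to 0.0792). Insig2 lost its call without treated small P5 array 2 or treated small P15 array 2 (0.15 to 0.21, adjusted p = 0.0595 to 0.0991). Lss lost its call without treated small P5 array 1 or 2 or treated small P15 array 1 or 3 (-0.19 to -0.14, adjusted p = 0.102 to 0.184). Nr1h3 lost its call without treated small P5 array 1 or 2 or treated small P15 array 1, 2 or 3 (-0.19 to -0.16, adjusted p = 0.0625 to 0.113). Acly and Fasn also lost their calls with median centring, Lss with the compared arrays alone and Nr1h3 with trend and robust moderation.

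In untreated large colonies the same span of passages gave no common direction of cholesterol synthesis. Of the 17 synthesis genes 5 rose and 5 fell, with a median of -0.063 against -0.042 over all genes. Over all 35 genes 14 rose and 9 fell. The share called, 65.7%, was near that of genes of like level, since it stood against 36.1% of all genes tested and 56.9% of those at or above the median level. The share higher, 40.0%, stood against 17.4% of all genes tested and 28.8% of those at or above the median level, and the share lower, 25.7%, against 18.7% of all genes tested and 28% of those at or above the median level. Cyp51 (0.90 ± 0.066, adjusted p = 1.02e-08), Ebp (0.64 ± 0.062), Fdft1 (0.63 ± 0.068), Dhcr7 (0.51 ± 0.077) and Mvk (0.42 ± 0.063) rose. Lss (-0.54 ± 0.075, adjusted p = 1.98e-05), Sqle (-0.42 ± 0.052), Fdps (-0.33 ± 0.073), Sc5d (-0.33 ± 0.053) and Hsd17b7 (-0.24 ± 0.071) fell. Idi1, Hmgcs1 and Msmo1 were at 0.14, 0.14 and -0.066, not called. Fatty acid genes rose in 5 of 6 cases, and the 2 changes of at least 2-fold among all 35 genes, against 3.77% of all genes, were there: Elovl6 rose 2.46-fold (1.30 ± 0.080, adjusted p = 1.09e-09) and Scd1 2.21-fold (1.14 ± 0.065, adjusted p = 4.58e-10). Acaca (0.42 ± 0.084), Acly (0.32 ± 0.064) and Scd2 (0.30 ± 0.055) rose less, and Fasn was at 0.15, not called. Srebf2 (0.59 ± 0.066), Scap (0.30 ± 0.059) and Stard4 (0.45 ± 0.092) rose, and Insig2 (-0.72 ± 0.074), Nr1h3 (-0.72 ± 0.067), Npc1 (-0.50 ± 0.063) and Npc2 (-0.27 ± 0.056) fell. Insig1 and Srebf1 were at 0.15 and 0.018, not called. Hsd17b7 lost its call without large P15 array 1 or 3 (-0.21 to -0.18, adjusted p = 0.0611 to 0.076). Mylip lost its call without large P5 array 1 or 3 or large P15 array 2 (0.16 to 0.23, adjusted p = 0.0502 to 0.107). Hsd17b7 also lost its call with the compared arrays alone.

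The changes with passage in treated small and in untreated large colonies rest on different arrays, and their difference was tested as an interaction. It was called for 26 of 35 genes, 74.3%, against 34.4% of all genes tested and 46.3% of those at or above the median level. For 20 genes the change was lower in treated small colonies, 57.1% against 15.9% of all genes tested and 26.7% of those at or above the median level, and for 6 it was higher, 17.1% against 18.6% of all genes tested and 19.6% of those at or above the median level. Differences of at least 2-fold were those of 4 genes, against 4.23% of all genes. Of the 17 cholesterol synthesis genes 12 were among the lower ones and Lss alone was among the higher (0.35 ± 0.11). The median difference of the 17 was -0.57, against 0.073 over all genes. Cyp51 differed most (-1.69 ± 0.093, adjusted p = 6.25e-10), having risen in large and fallen in treated small colonies, followed by Idi1 (-1.46 ± 0.10, adjusted p = 1.55e-08), Insig1 (-1.43 ± 0.10, adjusted p = 1.29e-08) and Msmo1 (-1.28 ± 0.092, adjusted p = 1.56e-08). Fdft1, Cyp51, Srebf2, Scap and Mylip were called higher with passage in large colonies and lower in treated small ones, and Insig2 was called the other way in both (0.96 ± 0.10 for the difference). Dhcr7, Acly, Acaca, Elovl6, Scd1 and Scd2 were called higher with passage in both, and Fdps, Sqle, Lss, Hsd17b7, Sc5d and Nr1h3 lower in both. Among fatty acid genes the rise of Scd1 (-0.91 ± 0.092) and Elovl6 (-0.79 ± 0.11) was smaller in treated small colonies, that of Acaca was larger (0.39 ± 0.12), and the differences of Acly, Fasn and Scd2 were -0.13, 0.053 and 0.11, not called. Acaca lost its call without large P15 array 2 or treated small P5 array 3 (0.32 to 0.33, adjusted p = 0.0523 to 0.0537). Srebf1 lost its call without large P5 array 2 or 3, large P15 array 1, treated small P5 array 1 or 2 or treated small P15 array 2 (-0.25 to -0.21, adjusted p = 0.0606 to 0.0838).

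**Figure D5:**
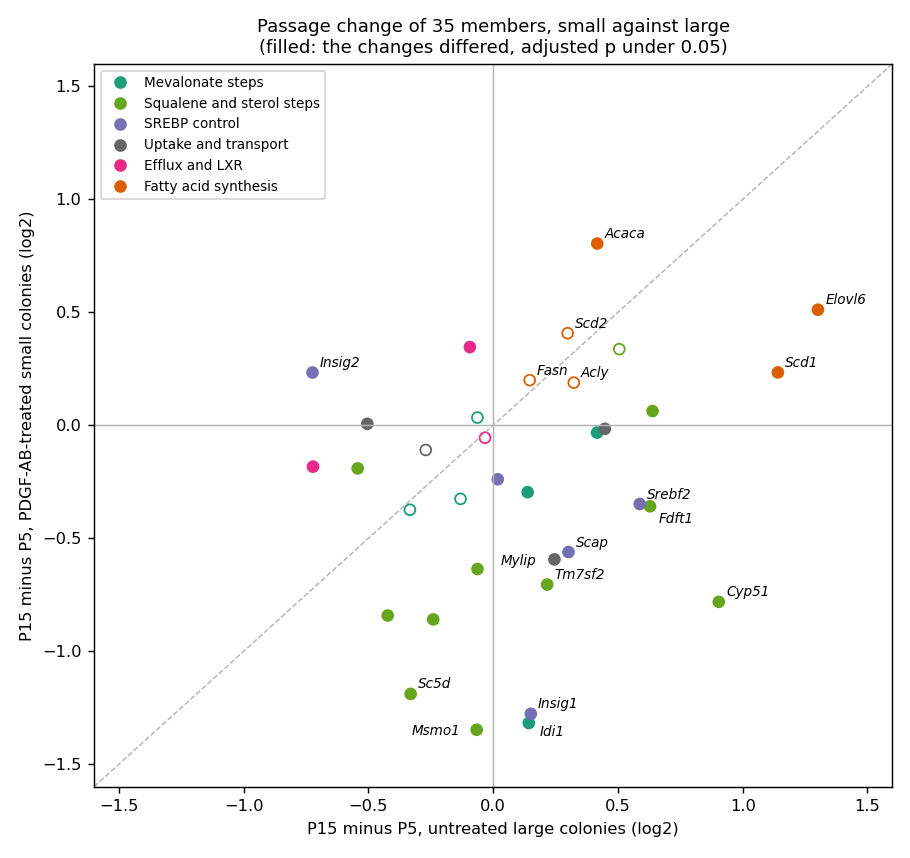
Change with passage in untreated large colonies (horizontal) against that in treated small colonies (vertical), both in log2, for 35 genes, filled where the 2 changes differed, with the dashed line where they would be equal. Fatty acid genes all lie above 0 on both axes, while Idi1, Msmo1, Insig1 and Sc5d lie near or below -1.19 vertically and between -0.33 and 0.15 horizontally.

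Treated small colonies were also set against untreated large ones at each passage, with arrays that also serve in the comparisons above. At passage 5 the difference was mixed: 10 genes were higher and 9 lower, 54.3% called, against 35.7% of all genes tested and 57.7% of those at or above the median level, the latter a like share. The share higher, 28.6%, stood against 14.8% of all genes tested and 22.6% of those at or above the median level, and the share lower, 25.7%, against 20.9% of all genes tested and 35.1% of those at or above the median level. Scap (0.67 ± 0.059), Sc5d (0.66 ± 0.053), Srebf2 (0.59 ± 0.066) and Abca1 (0.56 ± 0.10) were higher in treated small colonies, and Nr1h3 (-1.16 ± 0.067, adjusted p = 5.61e-10) and Lss (-0.44 ± 0.075) lower. Nr1h3 alone differed at least 2-fold, as 3.64% of all genes did. Over the 17 synthesis genes 5 were higher and 2 lower, with a median of -0.045. Mylip (-0.24) lies on chromosome 13, where the chromosome's value was -0.35, Scd1 (-0.34) and Scd2 (-0.15) on chromosome 19, with -0.23, and Npc1 (-0.25) on chromosome 18, with -0.14. Abca1 lies on chromosome 4, with a chromosome value of 0.19. Dhcr7 lost its call without large P5 array 2 or 3 or treated small P5 array 3 (-0.23 to -0.16, adjusted p = 0.0602 to 0.118). Insig2 lost its call without treated small P5 array 2 (-0.23, adjusted p = 0.0501). Msmo1 lost its call without large P5 array 2 or 3 or treated small P5 array 1 or 3 (0.16 to 0.18, adjusted p = 0.086 to 0.129). Mvd lost its call without large P5 array 1 or 3 or treated small P5 array 1 (0.17 to 0.21, adjusted p = 0.12 to 0.18). Mylip lost its call without large P5 array 2 or treated small P5 array 2 (-0.21 to -0.20, adjusted p = 0.0778 to 0.0885). Scd2 lost its call without large P5 array 1 or 2 or treated small P5 array 1, 2 or 3 (-0.15 to -0.12, adjusted p = 0.0845 to 0.161). Dhcr7, Msmo1, Mvd and Scd2 also lost their calls with the compared arrays alone, Insig2 and Scd2 with cyclic loess, and Scd2 with median centring and with the replicate block.

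At passage 15 cholesterol synthesis genes were lower in treated small than in large colonies, 13 of 17, and Pmvk alone was higher. Over all 35 genes 21 were lower and 6 higher. The share lower, 60.0%, stood against 24.2% of all genes tested and 41.5% of those at or above the median level, the share higher, 17.1%, against 29.2% of all genes tested and 23.2% of those at or above the median level, and the share called, 77.1%, against 53.4% of all genes tested and 64.8% of those at or above the median level. The median of the 17 was -0.47, against 0.069 over all genes. The 6 differences of at least 2-fold, against 4.64% of all genes, were in Idi1 (-1.53 ± 0.074, adjusted p = 3.52e-11), Scd1 (-1.25 ± 0.065, adjusted p = 1.02e-10), Cyp51 (-1.19 ± 0.066), Msmo1 (-1.10 ± 0.065), Tm7sf2 (-1.09 ± 0.084) and Mylip (-1.08 ± 0.076), all lower. Elovl6 was lower as well (-0.70 ± 0.080), whereas Acly, Acaca, Fasn and Scd2 were between -0.038 and 0.013, not called. Insig2 (0.70 ± 0.074), Abca1 (0.54 ± 0.10) and Abcg1 (0.40 ± 0.050) were higher. Hmgcs1 (-0.52) lies on chromosome 13, with a chromosome value of -0.27, and Npc2 (0.20) on chromosome 12, with 0.33. Abca1 lies on chromosome 4, with 0.23. Pmvk lost its call without large P15 array 1 or 2 or treated small P15 array 1, 2 or 3 (0.13 to 0.24, adjusted p = 0.0567 to 0.217). With cyclic loess Sc5d, Scap and Pmvk were not called, at -0.085, -0.075 and 0.038 in place of -0.20, -0.19 and 0.22, and Pmvk was also not called with trend and robust moderation.

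Neighbouring lipid genes were taken from lists of other sterol genes (18 measured), other fatty acid genes (18) and fatty acid oxidation genes (14). They fell more often than they rose with PDGF-AB and were lower more often than higher in treated small than in large colonies. Genes at or above the median level leaned the same way in these comparisons. With PDGF-AB 12 of the 18 other sterol genes, 14 of the 18 other fatty acid genes and 7 of the 14 oxidation genes fell, and 2, 1 and 2 rose, where 18.2% of all genes tested and 31% of those at or above the median level fell and 10.7% of all genes tested and 13.8% of those at or above the median level rose. Their medians were -0.24, -0.24 and -0.18. The clearest falls were in Fads1, the desaturase of polyunsaturated fatty acids (-0.65 ± 0.056, adjusted p = 2.15e-07), Stard5, a sterol carrier (-0.76 ± 0.064, adjusted p = 1.61e-07), Lpin1, a phosphatidate phosphatase (-0.72 ± 0.070), Gpam, which starts glycerolipid synthesis (-0.62 ± 0.064), and the oxidation enzymes Acadl (-0.63 ± 0.056) and Acaa2 (-0.58 ± 0.061). Between large and small untreated colonies the other sterol genes split into 5 higher and 7 lower, the other fatty acid genes into 4 and 4, and the oxidation genes into 2 and 4, where 18.2% of all genes tested and 26.2% of those at or above the median level were higher and 18% of all genes tested and 29.1% of those at or above the median level lower. Lpin1 (1.09 ± 0.070), Fads1 (0.54 ± 0.056) and Hadhb of fatty acid oxidation (0.46 ± 0.056) were higher in large colonies, and Gpam was lower (-0.77 ± 0.064). With passage in large colonies Vldlr, a lipoprotein receptor, fell (-1.74 ± 0.059, adjusted p = 5.92e-13) and Scarb1, the receptor for high-density lipoprotein, rose (1.12 ± 0.070, adjusted p = 1.23e-09). With passage in treated small colonies Lbr, a sterol reductase that is also a nuclear envelope receptor, rose (1.17 ± 0.090, adjusted p = 1.42e-08), as did Acaa2 (0.82 ± 0.061) and Acsl5, an acyl-CoA synthetase (0.79 ± 0.055), and Cpt1c fell (-1.07 ± 0.054, adjusted p = 7.19e-11). In these passages 6 and 8 of the other sterol genes rose and 5 and 6 fell, 8 and 3 of the other fatty acid genes rose and 3 and 5 fell, and 5 and 6 of the oxidation genes rose and 3 and 5 fell, in large and in treated small colonies in turn. In large colonies 17.4% of all genes tested and 28.8% of those at or above the median level rose, and 18.7% and 28% fell. In treated small ones the shares were 24.6% and 29.8% for rises, and 21.4% and 36% for falls. In treated small against large colonies at passage 5, 4 of the other sterol genes were higher and 8 lower. The other fatty acid genes gave 1 and 7, and the oxidation genes 1 and 8. Of all genes tested 14.8% were higher and 20.9% lower, and of those at or above the median level 22.6% and 35.1%. At passage 15 the counts were 5 and 10, 3 and 11, and 1 and 7. There 29.2% of all genes tested were higher and 24.2% lower, and of those at or above the median level 23.2% and 41.5%. At passage 15 Fads2 (-1.31 ± 0.048, adjusted p = 9.57e-13), Fads1 (-1.12 ± 0.056) and Acsl4 (-1.20 ± 0.050) were lower in treated small than in large colonies, and Vldlr was higher (2.07 ± 0.059, adjusted p = 3.12e-14).

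The 3 genes of the NF-Y complex, which binds CCAAT boxes, all rose with passage in large colonies, Nfya by 0.38 ± 0.055, Nfyb by 0.73 ± 0.083 and Nfyc by 0.49 ± 0.064. With passage in treated small colonies Nfya (0.55 ± 0.055) and Nfyc (0.40 ± 0.064) rose and Nfyb was at -0.18, not called. With PDGF-AB Nfya (-0.33 ± 0.055) and Nfyb (-0.31 ± 0.083) fell and Nfyc was at 0.11, not called. Between large and small untreated colonies Nfya was higher (0.47 ± 0.055) and Nfyc lower (-0.55 ± 0.064), with Nfyb at 0.15, not called. In treated small against large colonies Nfya and Nfyb were lower and Nfyc higher at both passages. The change of Nfyb with passage differed between treated small and large colonies (-0.91 ± 0.12, adjusted p = 1.47e-05). Whether NF-Y had a part in the changes of the synthesis genes was not tested.

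Proliferation genes moved in the same comparisons. All 7 of a list of them, with Mki67, the proliferation antigen, at 5.41 in large P5, 8.18 in large P15, 6.71 in untreated small P5, 5.60 in treated small P5 and 8.97 in treated small P15, were lower in large than in small untreated colonies and lower with PDGF-AB, as most cholesterol synthesis genes were. All 7 rose with passage in both kinds of colony, where cholesterol synthesis genes were split in large colonies and lower in treated small ones and fatty acid genes were mostly higher. Of all genes tested 18% were lower in large than in small untreated colonies and 18.2% lower with PDGF-AB. With passage 17.4% rose in large and 24.6% in treated small colonies. The part of proliferation in these results was not tested.

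Markers of other cell types ranged from near the bottom of the scale to well above the median level of all genes (6.02), and some of them moved. Of 6 leukocyte genes, Ptprc and Adgre1 lay at or below 4.18 in all arrays. Cd68 and Csf1r had group means of 5.58 to 6.18. Lyz2 went from 9.14 in untreated small P5 to 5.35 in treated small P15. Cd14 was at 7.16 in untreated small P5, 5.92 in treated small P5 and 5.30 in large P5. The summed intensity of the list, on the linear scale, was 538 to 556 in large P5, 622 to 708 in large P15, 842 to 887 in untreated small P5, 678 to 692 in treated small P5 and 217 to 235 in treated small P15. Of 5 cardiomyocyte genes, Myh6, Actn2, Ryr2 and Nppa lay at or below 5.54, while Tnnt2 went from 7.32 in large P15 to 10.38 in treated small P5. The summed intensity of that list was 372 to 388 in large P5, 278 to 290.3 in large P15, 887 to 907 in untreated small P5, 1424 to 1521 in treated small P5 and 669 to 686 in treated small P15. Of 6 adipocyte genes, all but Pparg lay at or below 5.79, while Pparg went from 6.49 in treated small P15 to 8.81 in large P15. The summed intensity was 565 to 586 in large P5, 576 to 584 in large P15, 254 to 264 in untreated small P5, 402 to 407 in treated small P5 and 224 to 234 in treated small P15. On the linear scale the highest genes weigh most, so these sums mostly followed Lyz2, Tnnt2 and Pparg. All 5 endothelial genes lay at or below 5.75. With PDGF-AB 2 of 6 leukocyte genes were lower, and 2 of 5 cardiomyocyte and 3 of 6 adipocyte genes were higher, where 18.2% of all genes were lower and 10.7% higher. No endothelial gene was called there. With passage in treated small colonies 3 leukocyte genes were higher and 2 lower, and 2 of 5 endothelial genes were higher. In the same comparison 1 cardiomyocyte and 1 adipocyte gene went each way. Of all genes 24.6% were higher and 21.4% lower. Marker counts for the other comparisons are not given here. The part of these genes in the results above was not tested.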

How the data were processed

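Total RNA of 15 samples was labelled with biotin for Affymetrix whole-transcript arrays, 1 array per sample. The deposited values are log2 intensities of 28853 probe sets, made by the authors. RMA and limma appear in the submitters' processing notes without a version or a role. The background settings are not given in the sources used here, and raw scans were not used. The labels' protocols also mention a PDGF receptor inhibitor, but no sample was labelled with it. RMA usually brings arrays to a common distribution, and intensities near background understate changes. The number of arrays, 3 per group, limits the precision.

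Probe sets were named from the platform annotation: 21789 with 1 gene, 1621 with several and 5443 not listed. Of the first, 21698 matched the RefSeq table of GRCm38.p6 and 91 did not. For 999 genes with several probe sets the one with the highest mean was used, leaving 19938 genes. The labels gave the groups. A linear model of the 5 groups (limma 3.58.1, R 4.3.3) was fitted to all 15 arrays together (10 residual and 5.80 prior degrees of freedom), with Benjamini-Hochberg adjustment per comparison, and the median SE of a change was 0.0778. Pearson's r across genes, which are not independent replicates, was 0.997 to 0.998 within groups and 0.958 to 0.991 between groups. Arrays were compared for identical values: 33 to 63 genes per group had equal values in all 3 arrays, none of them among the 35. The fit was also run on simulated data with known changes, drawn from its own group means and spread with independent noise. That run can check only the calculation, since the model's assumptions were built into the data. Such data cannot show whether arrays of 1 group share a culture.

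The members and all gene lists were chosen with earlier results of these data known. Every gene is accounted for, and values of single arrays are given for up to 4 genes per branch, those with the widest range of group means. Up to 3 genes per list and comparison, with the smallest adjusted p, are named, and Pdgfra, Pecam1 and Mki67 in any case, with Thy1, Lyz2, Tnnt2, Pparg, Xist and the other markers named after their values were seen. Other settings tried were median centring of arrays, cyclic loess, no genes below the median level, the mean over a gene's probe sets, the compared arrays alone, trend and robust moderation, a replicate block, at least 2-fold, and each array left out in turn.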

Additional observations from a re-analysis of the deposited data

Results flagged for a closer look

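The 26 genes below changed differently with passage in treated small and in untreated large colonies, by limma's test of the difference itself (adjusted p from 6.25e-10 to 0.0322). Each value is the change in treated small colonies minus that in large colonies, in log2, with n = 3 arrays in each of 4 groups. Among mevalonate genes it was -0.43 for Hmgcs1, -0.45 for Mvk and -1.46 for Idi1. Among the squalene and sterol steps it was -0.99 for Fdft1, -0.42 for Sqle, 0.35 for Lss, -1.69 for Cyp51 and -0.92 for Tm7sf2. For the later steps it was -1.28 for Msmo1, -0.57 for Nsdhl, -0.62 for Hsd17b7, -0.58 for Ebp and -0.86 for Sc5d. The controllers gave -1.43 for Insig1, 0.96 for Insig2, -0.26 for Srebf1, -0.94 for Srebf2 and -0.86 for Scap. Sterol transport genes gave -0.46 for Stard4, 0.51 for Npc1 and -0.84 for Mylip. The efflux gene Abcg1 gave 0.44 and Nr1h3, encoding LXRα, 0.54. Fatty acid genes gave 0.39 for Acaca, -0.79 for Elovl6 and -0.91 for Scd1. Treated small and untreated large colonies differ in both colony size and PDGF-AB, which cannot be told apart here. Groups of 3 arrays are too small for the check of single arrays that stand apart.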

How the results depend on the processing

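Of 3381 refits of single genes in single comparisons under the alternatives, none reversed a call, 3252 kept their side of the threshold, 103 lost a call and 26 gained one, and 47 uncalled values changed sign. Asking for at least 2-fold left 2 calls for passage in large colonies (2 higher, 0 lower), 4 for large against small colonies (0 higher, 4 lower), 0 for PDGF-AB (0 either way, since none of the 35 genes changed 2-fold), 4 for passage in treated small colonies (0 higher, 4 lower), 1 and 6 for treated small against large colonies at passages 5 and 15 (0 higher in both), and 4 for the difference of passage changes (0 higher, 4 lower), by limma and by the rule's own construction. For large against small colonies the count of higher genes, 2 as reported, was 4 with arrays centred on their medians, 5 without genes below the median level and 4 with the compared arrays alone, and the cause was not tested. Centring and loess moved the median change of all genes by at most 0.0712 in size.

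Replicate numbers did not meet the rule for pairing in any comparison. For passage in large colonies the correlations of same-numbered arrays were 0.208, 0.0984 and 0.202, with 6 of 6 arrays closest to their own number, against 0 to 4 of 6 elsewhere. With the replicate block, 1 gene in place of 2 was higher with PDGF-AB, as Tm7sf2 lost its call, and the counts of calls elsewhere were 23, 27, 28, 18, 27 and 26 in place of 23, 27, 28, 19, 27 and 26.

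With 1 array left out at a time, passage in large colonies gave 22 to 24 calls (13 to 15 higher, 8 to 9 lower) and large against small 23 to 27 (2 to 3, 21 to 25). PDGF-AB gave 22 to 25 (1 to 2, 21 to 24) and passage in treated small colonies 23 to 26 (6 to 9, 17 to 19). Treated small against large gave 15 to 18 at passage 5 (8 to 10, 6 to 9) and 26 to 27 at passage 15 (5 to 6, 21), and the difference 25 to 26 (5 to 6, 19 to 20).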

Other observations

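Other genes of the neighbouring lists gave further values, all from limma. With PDGF-AB Tmem97, a sterol-binding receptor of the endoplasmic reticulum, fell (-0.44 ± 0.059, adjusted p = 3.64e-05), as did Lipa, the lysosomal lipase (-0.34 ± 0.051, adjusted p = 9.02e-05), and Cpt1c rose (0.42 ± 0.054, adjusted p = 2.13e-05). With passage in treated small colonies Tmem97 rose (0.77 ± 0.059, adjusted p = 1.34e-08), as did Elovl5, an elongase of polyunsaturated fatty acids (0.74 ± 0.057, adjusted p = 1.23e-08), and Acsl4, an acyl-CoA synthetase that prefers arachidonate, fell (-0.58 ± 0.050, adjusted p = 4.76e-08). With passage in large colonies Me1, the malic enzyme that supplies NADPH, fell (-0.44 ± 0.048, adjusted p = 1.17e-06), and the oxidation enzymes Hadh (0.56 ± 0.054, adjusted p = 3.09e-07) and Acaa2 (0.61 ± 0.061, adjusted p = 4.54e-07) rose while Hadhb fell (-0.62 ± 0.056, adjusted p = 1.47e-07). The change of Acsl4 with passage differed between treated small and large colonies (-0.97 ± 0.070, adjusted p = 1.96e-08), and that of Vldlr differed the other way (1.95 ± 0.083, adjusted p = 2.48e-11). At passage 15 Osbp, an oxysterol-binding protein, was lower in treated small than in large colonies (-0.87 ± 0.074, adjusted p = 5.12e-08), as were the oxidation enzymes Cpt1a (-0.37 ± 0.048, adjusted p = 9.87e-06) and Acadvl (-0.46 ± 0.065, adjusted p = 1.86e-05).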
